A study of Mus musculus with 39 samples.

Results

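Fbxw24, Fbxw15, Fmo1, Rerg, Sftpd, Cftr, Car5b and Adgrg6 are genes whose RNA was far higher in islets of Pdx1-creLate mice than in islets of their control littermates, and that moved less, or not at all, in islets of pregnant mice. They were taken as the 8 members by name, each as the probe set annotated with that symbol alone, among 19938 genes measured on Affymetrix Mouse Gene 1.0 ST arrays. Each member had 1 such probe set. The members were chosen on the difference between the transgene and the pregnancy effect, so their values in both comparisons are given as a description with no test. The choosing rule states no threshold. By the transgene difference minus the mid-pregnancy difference the members ranked 1 (Fbxw24), 2 (Cftr), 3 (Rerg), 4 (Adgrg6), 5 (Fmo1), 7 (Fbxw15), 13 (Car5b) and 14 (Sftpd) among all genes.

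The series holds 39 arrays of total RNA from isolated pancreatic islets, in 10 groups. Pdx1-creLate mice (4 arrays) were compared with their wild type littermates (4 arrays, called controls), both of backcross generation N8 and both not pregnant. Wild type C57bl6/J females were taken on pregnancy days 3.5 (3 arrays), 6.5, 9.5, 12.5, 15.5 and 18.5 and at 10 days post partum while lactating, and set against non-pregnant females (4 arrays in each of these groups). The labels call the arrays biological replicates and give no age, and they state no sex for the Pdx1-creLate mice and the controls.

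Pdx1-creLate is a line in which a fragment of the Pdx1 promoter drives Cre recombinase in islet beta cells, and it carries a human growth hormone minigene behind the Cre sequence. Human growth hormone can bind the prolactin receptor, the receptor through which placental lactogen and prolactin act on beta cells in pregnancy. In the mouse these hormones are known to raise Tph1, the enzyme of serotonin synthesis, and to precede an increase in beta cell number. Among the 8 genes, Fbxw24 and Fbxw15 encode proteins with an F-box and WD-40 repeats, a family known for choosing targets of ubiquitin ligases. Fmo1 (a flavin-containing monooxygenase) and Car5b (a mitochondrial carbonic anhydrase) are enzymes, Rerg is a small Ras-like GTPase first described in human breast cells, and Adgrg6 is an adhesion G protein-coupled receptor known for its part in Schwann cell myelination. Sftpd is a secreted collectin of lung surfactant and Cftr is the chloride and bicarbonate channel of epithelia, known in the pancreas for duct secretion.

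On the GRCm38.p6 assembly, Fbxw15 (chr9:109552602-109568262) and Fbxw24 (chr9:109601116-109626059) lie 32853 bp apart in a cluster of 15 Fbxw genes that spans 651.2 kb. The other members are Fmo1 (chr1:162829561-162866610), Rerg (chr6:137054825-137170496), Cftr (chr6:18170687-18322770), Sftpd (chr14:41172212-41185198), Adgrg6 (chr10:14402583-14545723) and Car5b (chrX:163976822-164028010). The table of RefSeq windows held Fbxw24, Fbxw15, Cftr, Adgrg6 and Car5b. The 250 bases upstream of the start of 4 Fbxw genes are shown because all 4 are close copies of one sequence while their RNA differed so much between Pdx1-creLate and control islets. They are read 5′ to 3′ on the minus strand of GRCm38.p6, from chr9:109626060-109626309 (Fbxw24), chr9:109568263-109568512 (Fbxw15), chr9:109746090-109746339 (Fbxw26) and chr9:109162020-109162269 (Fbxw21). Capitals mark the bases that do not match Fbxw24 in a global alignment to it.
Fbxw24: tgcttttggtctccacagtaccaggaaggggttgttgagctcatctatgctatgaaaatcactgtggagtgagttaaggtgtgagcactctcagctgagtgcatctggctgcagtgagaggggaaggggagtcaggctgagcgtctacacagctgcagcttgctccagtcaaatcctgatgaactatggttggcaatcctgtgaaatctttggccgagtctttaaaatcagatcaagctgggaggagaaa
Fbxw15: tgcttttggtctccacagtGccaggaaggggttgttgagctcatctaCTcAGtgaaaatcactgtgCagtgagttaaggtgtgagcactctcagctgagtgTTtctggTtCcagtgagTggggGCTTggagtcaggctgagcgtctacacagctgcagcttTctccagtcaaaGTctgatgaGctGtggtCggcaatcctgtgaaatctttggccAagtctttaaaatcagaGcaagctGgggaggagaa
Fbxw26: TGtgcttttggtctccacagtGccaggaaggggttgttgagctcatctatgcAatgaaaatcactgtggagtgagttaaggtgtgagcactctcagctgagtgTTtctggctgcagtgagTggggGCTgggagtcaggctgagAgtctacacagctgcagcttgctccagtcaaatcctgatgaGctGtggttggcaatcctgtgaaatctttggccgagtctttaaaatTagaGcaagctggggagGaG
Fbxw21: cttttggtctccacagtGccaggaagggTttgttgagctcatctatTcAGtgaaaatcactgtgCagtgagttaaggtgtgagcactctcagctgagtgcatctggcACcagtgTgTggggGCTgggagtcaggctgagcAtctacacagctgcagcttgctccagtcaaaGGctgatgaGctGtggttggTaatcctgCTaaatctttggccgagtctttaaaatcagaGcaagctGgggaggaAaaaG

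The window of Fbxw15 was identical to that of Fbxw24 at 226 of 250 bases (90.4%), that of Fbxw26 at 93.2% and that of Fbxw21 at 90.0%. Fbxw26 differed by 0.15 ± 0.11 (log2, SE, limma adjusted p = 0.534) between Pdx1-creLate and control islets and Fbxw21 by 0.05 ± 0.09 (adjusted p = 0.836), so neither passed the test. Of the 8 measured genes of the cluster, the 6 that are no members differed by at most 0.3 (log2), and none passed. Fbxw18, whose window was 86.8% identical, had the 0.3 (adjusted p = 0.173), and Fbxw20, at 79.6%, had 0.22 (adjusted p = 0.46). At 0 positions of the Fbxw24 window did Fbxw15 match while all 4 other measured genes with a window did not. Genes of such a cluster can share hybridization. Only upstream windows were compared here, and transcript and probe sequences were not used. How the signal divides between Fbxw24, Fbxw15 and genes of the cluster not analysed here is therefore uncertain. The motif TTCNNNGAA, which reads the same on both strands and is the known STAT5 consensus, was found in 0 of the 5 member windows of 250 bases and in 7.02% of all 32851 windows. At that rate 5 windows are too few to show a lack, and Fmo1, Rerg and Sftpd had no window. Nothing is read from this count.

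**Figure D1:**
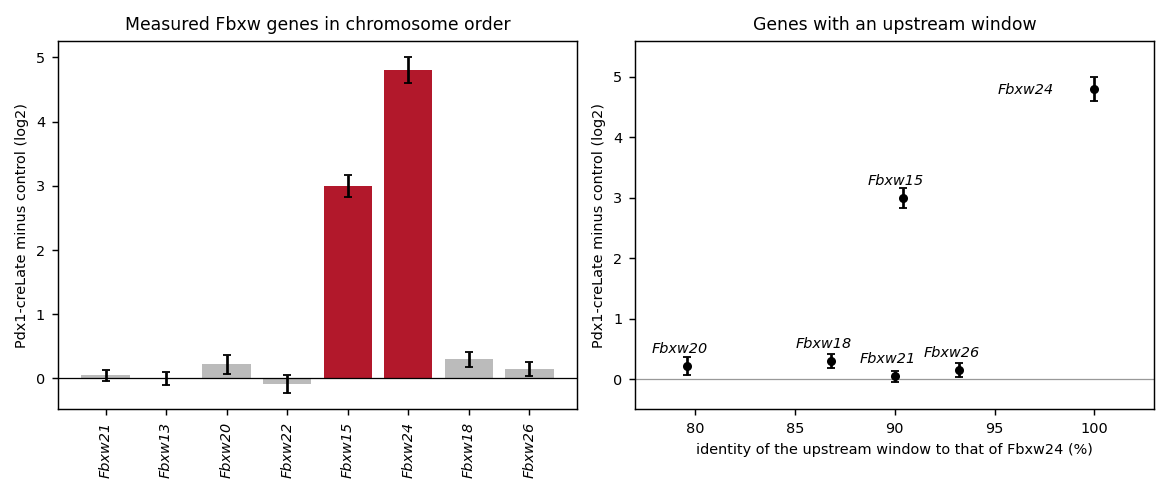
Differences between Pdx1-creLate and control islets (log2, y axes, error bars SE, 4 arrays in each group) for the 8 measured Fbxw genes of the chromosome 9 cluster in chromosome order (left), and against the identity of their upstream window to that of Fbxw24 in percent (right, 6 genes with a window). Fbxw15 and Fbxw24 stand at 3.0 and 4.8 while the other genes stay at or below 0.3, Fbxw26 with 93.2% identity included.

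All values below are the authors' log2 signals, where 1 unit is a 2-fold difference. Signals of different genes were not set against each other, except to judge which may lie near background. Array-to-array correlations over all genes were 0.9728 to 0.9956. The islet label held: 7 measured endocrine markers averaged 12.73 to 12.86 on the Pdx1-creLate arrays and 12.93 to 13.03 on the control arrays, and Ins2 alone 12.4 to 12.6 and 12.6. The marker mean was thus somewhat lower in Pdx1-creLate islets. Of the 7 markers, limma called 1 higher and 2 lower there (all genes 6.59% changed). Gcg averaged 13.5 and 13.7, Sst 12.47 and 13.02, and Ppy 12.45 and 13.0 in Pdx1-creLate and control islets. On the C57bl6/J arrays the endocrine marker mean was 12.44 on non-pregnant replicate 1 and 12.9 to 13.2 on all others. Ins2 read 11.9 on that array and 12.7 on the other non-pregnant arrays. The known lactogen targets Tph1, Cldn8, Cish and Socs2 rose in both settings, by 5.40, 5.35, 2.35 and 2.25 in Pdx1-creLate islets over controls (limma adjusted p at most 0.00177) and by 4.65, 4.2, 1.57 and 1.12 in mid-pregnancy over non-pregnant islets (at most 9.3e-09). Xist, the RNA of the inactive X chromosome, lay at 4.0 to 4.6 on Pdx1-creLate arrays and 3.8 to 5.0 on control arrays, against 10.2 to 10.5 on arrays of non-pregnant females. Y-linked Uty, Kdm5d and Eif2s3y went the other way, Uty for example at 8.0 to 8.4 on Pdx1-creLate arrays and 7.6 to 7.9 on control arrays, against 3.1 to 3.3 in non-pregnant females. The transgenic comparison and the pregnancy series thus differ in sex, backcross and treatment at once, which cannot be told apart. Islet RNA is a bulk measurement in which fewer cells of a type and less RNA per cell cannot be told apart.

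Control replicate 4 stood apart from the other 3 controls in several members. It read 4.8 for Fbxw24, 7.1 for Fmo1, 6.7 for Sftpd and 6.1 for Rerg, where the other controls reached at most 3.8, 6.1, 5.9 and 5.6. It was the highest control for 6 of 8 members (all genes 21%) and at least 0.5 above the mean of the others for 4 (all genes 1.18%). Tph1 read 7.3 on this array where the others read 4.5 to 4.6, and Cldn8, a tight junction claudin, read 7.9 where they read 5.1 to 5.3. Socs2 read 8.5 where they read 7.5 to 8.3. Cish, at 8.2, lay within the 6.5 to 9.0 of the other controls. Cftr and Adgrg6 were not raised there, at 3.9 against 3.8 to 4.2 and at 5.5 against 5.3 to 5.6. Without this array the median difference of the members between Pdx1-creLate and control islets was 3.66, against 3.55 with it.

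**Figure D2:**
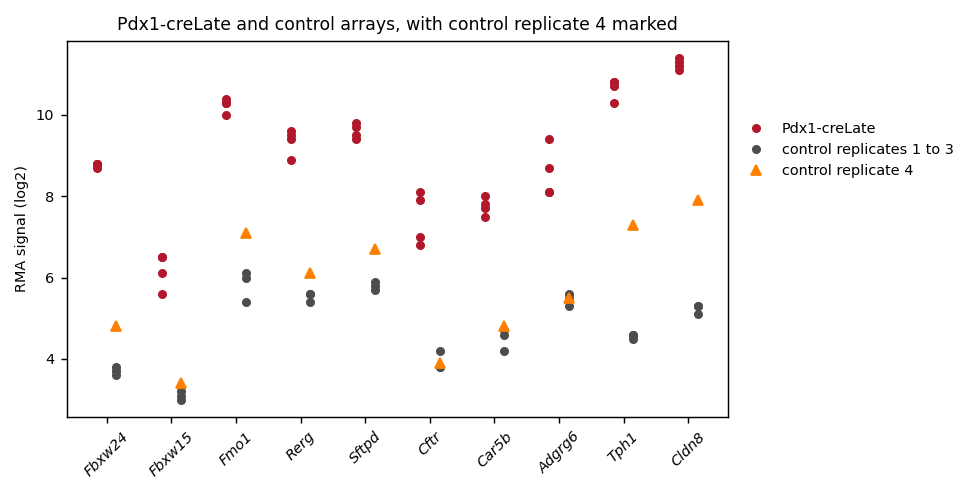
Signals (RMA, log2, y axis) of the 8 members, Tph1 and Cldn8 on the 4 Pdx1-creLate arrays (left points of each gene) and the 4 control arrays (right points), with control replicate 4 as a triangle. The triangle stands above the other controls for Fbxw24, Fmo1, Rerg, Sftpd, Tph1 and Cldn8, and among them for Cftr and Adgrg6, and below every Pdx1-creLate array for all 10 genes.

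All 4 Pdx1-creLate arrays lay above all 4 control arrays for 8 of 8 members (all genes 3.73%), and above all 35 other arrays of the series for 8 of 8 (all genes 1.22%). The rule chose genes for this contrast, so nothing is read from these counts. The members' median difference was 3.55 (log2), against -0.02 over all genes.

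Fbxw24 read 8.8, 8.7, 8.8 and 8.8 on the 4 Pdx1-creLate arrays, against 3.6, 3.8, 3.7 and 4.8 on the control arrays. The Pdx1-creLate arrays were almost equal and far above every control. Its difference of 4.80 ± 0.20 (log2, SE) is read as a lower bound as far as background goes, for the reason given next. Hybridization shared within the cluster is left aside in this reading. The file holds no detection calls, and Fbxw24, Fbxw15 and Cftr are among the dimmest 25% of genes by their mean signal. On arrays of non-pregnant females, which lack the Y chromosome, Uty read 3.1 to 3.3, Kdm5d 3.5 to 3.8 and Eif2s3y 2.6 to 2.8, so background differs by gene. The control signals of Fbxw24, Fbxw15 and Cftr may be background, and no fold is given for them.

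Fbxw15, the neighbour of Fbxw24, read 6.5, 6.5, 6.1 and 5.6 in Pdx1-creLate islets, against 3.0, 3.2, 3.1 and 3.4 in controls. The groups were far apart and the last Pdx1-creLate array was the lowest of its group. This is a difference of 3.00 ± 0.17, again a lower bound as far as background goes. Hybridization shared with Fbxw24 could instead make it too large, which was not tested.

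Fmo1 read 10.3, 10.4, 10.0 and 10.3 on the Pdx1-creLate arrays, against 5.4, 6.1, 6.0 and 7.1 on the control arrays. The groups did not overlap, and the last control array was the highest of its group. Its difference was 4.10 ± 0.25, or 17.15-fold. Car5b read 8.0, 7.8, 7.7 and 7.5 in Pdx1-creLate islets, against 4.2, 4.7, 4.6 and 4.8 in controls. Both groups were tight and apart, with a difference of 3.18 ± 0.14, or 9.03-fold.

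Rerg read 9.5, 9.6, 8.9 and 9.4 on the Pdx1-creLate arrays, against 5.6, 5.6, 5.4 and 6.1 on the control arrays. Every Pdx1-creLate array was well above every control, with a difference of 3.68 ± 0.16, or 12.77-fold. Adgrg6 read 8.7, 9.4, 8.1 and 8.1 in Pdx1-creLate islets, against 5.6, 5.5, 5.3 and 5.5 in controls. The controls were tight and the Pdx1-creLate arrays were spread, with no overlap. The difference was 3.10 ± 0.22, or 8.57-fold.

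Sftpd read 9.7, 9.4, 9.8 and 9.5 on the Pdx1-creLate arrays, against 5.7, 5.8, 5.9 and 6.7 on the control arrays. The groups were apart, with a difference of 3.58 ± 0.18, or 11.92-fold. Cftr read 8.1, 7.9, 7.0 and 6.8 in Pdx1-creLate islets, against 3.8, 3.8, 4.2 and 3.9 in controls. It was high on every Pdx1-creLate array and at the lowest on the last, with a difference of 3.52 ± 0.23, likewise a lower bound.

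Cftr, Adgrg6, Fbxw15, Rerg and Car5b were lower on both Pdx1-creLate replicates 3 and 4 than on replicates 1 and 2. The means of replicates 3 and 4 and of 1 and 2 were 6.9 and 8.0 for Cftr and 8.1 and 9.05 for Adgrg6. They were 5.85 and 6.5 for Fbxw15, 9.15 and 9.55 for Rerg, and 7.6 and 7.9 for Car5b. For Fmo1 they were 10.15 and 10.35, for Fbxw24 8.8 and 8.75, and for Sftpd 9.65 and 9.55. The means of the duct, endocrine and acinar markers split the same way. That of stellate markers was not lower on replicates 3 and 4 (6.42, 6.34, 6.47 and 6.63 on the 4 arrays). Endothelial, macrophage and Schwann cell marker means did not split by these replicates. The mean of 8 duct markers was 6.69, 6.65, 6.46 and 6.45 on the 4 Pdx1-creLate arrays, and that of 7 endocrine markers 12.86, 12.86, 12.73 and 12.73. The mean of 13 acinar markers was 10.45, 10.09, 9.35 and 8.86 on the same arrays, and 8.64 to 9.77 on the control arrays. It ranged from 5.55 to 10.25 on the C57bl6/J arrays, where Cftr stayed between 3.6 and 4.2. Those arrays differ from the Pdx1-creLate arrays in sex and backcross, and their Cftr signals may be background, so nothing is read from this. Between Pdx1-creLate and control islets 0 of 13 acinar markers passed the test (median difference 0.68), and with their mean as a covariate the difference of Cftr was 3.20. The part of acinar cells in the result was not tested beyond this fit.

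Duct cells are the known site of Cftr in the pancreas. The mean of 8 measured duct markers was 6.45 to 6.69 on the Pdx1-creLate arrays and 6.95 to 7.15 on the control arrays. It was thus lower in the Pdx1-creLate group, where Cftr was higher, while among the Pdx1-creLate arrays it was higher on the 2 arrays with more Cftr. Of the 8, 0 rose and 1 fell, namely Prom1 (a membrane glycoprotein of epithelial and stem cells), with 6.58 in Pdx1-creLate islets and 8.48 in controls (adjusted p = 8.46e-07). Krt19 and Sox9, the defining duct keratin and transcription factor, were at 5.3 and 5.7 in Pdx1-creLate islets and at 5.45 and 5.85 in controls, and neither passed. The part of duct cells in the result was not tested beyond a fit with the duct mean as a covariate, which gave 5.45 for Cftr and 4.86 for Fbxw24. The duct means of the groups did not overlap, so this fit cannot separate the duct mean from the group, and nothing is read from it.

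**Figure D3:**
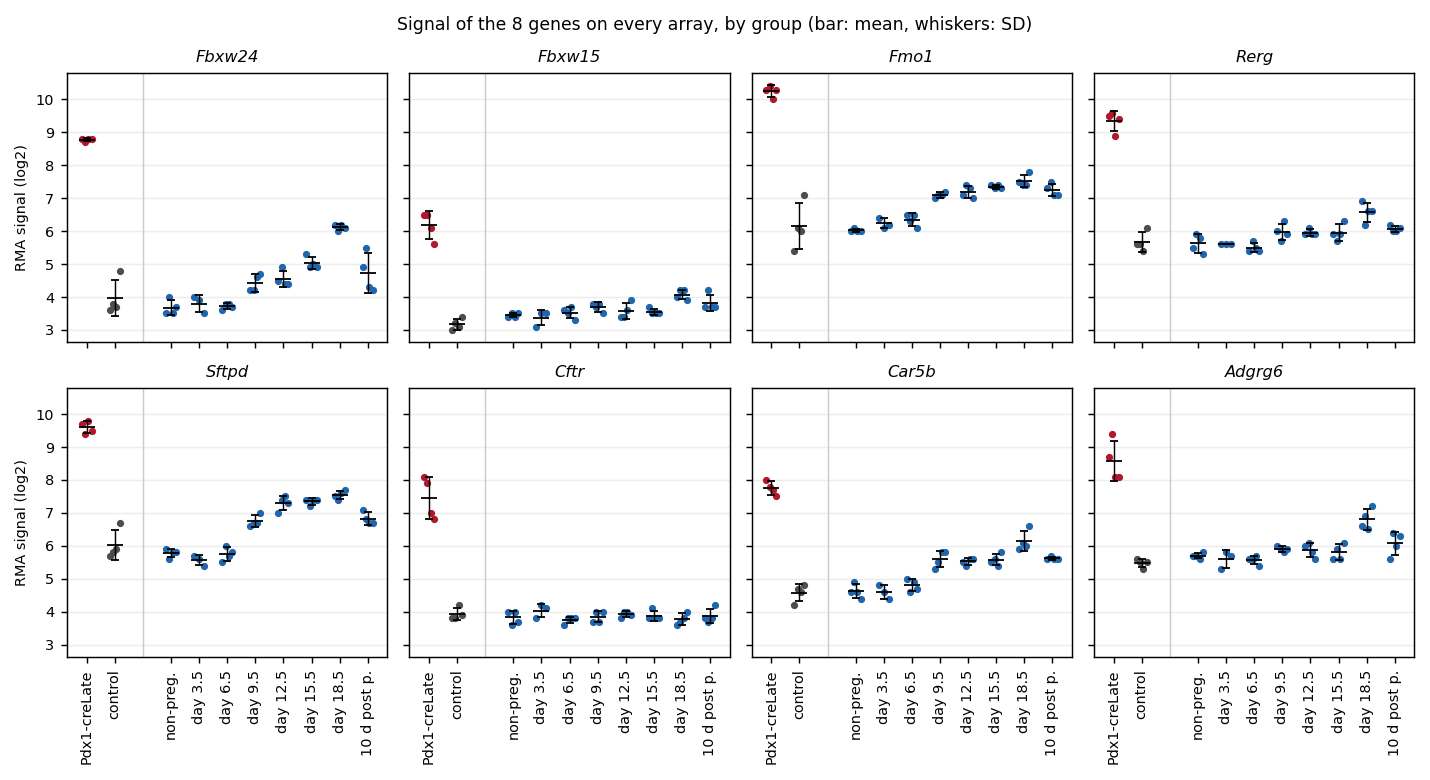
Signal (RMA, log2, y axis) of the 8 genes on every array in the 10 groups (x axis). Points are arrays, horizontal bars are group means and whiskers are SD. The Pdx1-creLate arrays are above all others in every panel, and 7 genes climb in the second part of pregnancy while Cftr stays between 3.6 and 4.2.

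In pregnancy the differences were smaller. At day 18.5, all 4 arrays were above all 4 non-pregnant arrays for 7 of 8 members (all genes 8.13%), the exception being Cftr. As a description, the day 18.5 differences from non-pregnant islets were 2.45 (Fbxw24), 1.78 (Sftpd), 1.52 (Car5b), 1.5 (Fmo1), 1.10 (Adgrg6), 0.95 (Rerg), 0.62 (Fbxw15) and -0.05 (Cftr), all on the log2 scale, with a median of 1.30. Their median in mid-pregnancy, the mean of days 9.5, 12.5 and 15.5, was 0.64. On the log2 scale the day 18.5 difference came to 51.0% of the transgene difference for Fbxw24, 49.7% for Sftpd and 48.0% for Car5b, but to 25.9% for Rerg. The share of Fbxw24 rests on dim baselines in both comparisons. Fmo1 and Adgrg6 lay between, at 36.6% and 35.5%.

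Pdx1-creLate islets were above day 18.5 islets in every member. The difference between their mean log2 signals, turned into a fold, was 6.84 for Rerg, 6.61 for Fmo1, 6.28 for Fbxw24, 4.14 for Sftpd, 3.42 for Adgrg6 and 3.03 for Car5b. Cftr and Fbxw15 were still dim on day 18.5, and their log2 differences of 3.68 and 2.10 from it are lower bounds as far as background goes. That of Fbxw15 could also be too large through hybridization shared with Fbxw24. In the order of the 10 group means, Pdx1-creLate came first and apart for all 8, and day 18.5 came next for all but Cftr. Day 18.5 was apart from the group below it for Fbxw24, Car5b and Adgrg6, and overlapped it for the others. Control littermates differed from non-pregnant C57bl6/J islets by -0.28 (Fbxw15) to 0.30 (Fbxw24), with a median of 0.08.

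**Figure D4:**
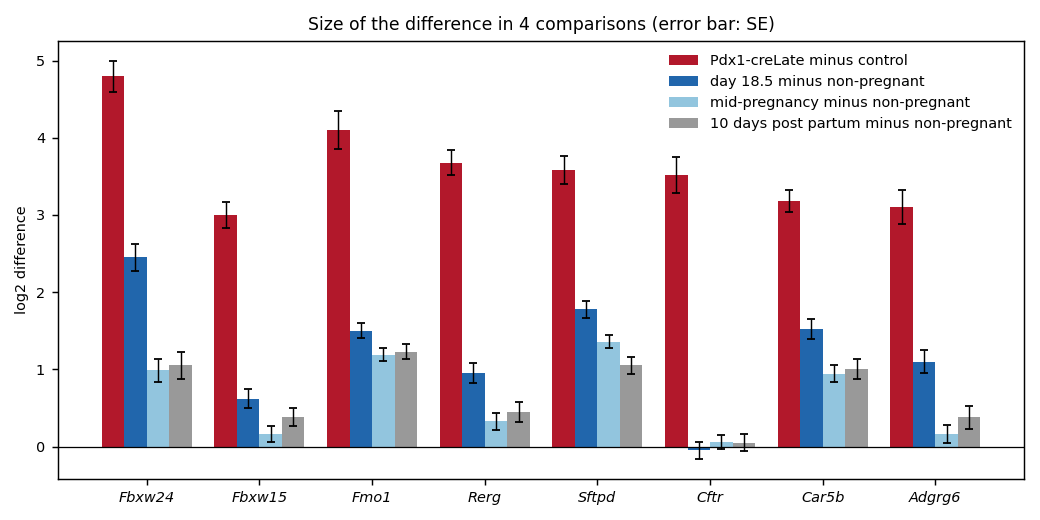
Differences (log2, y axis, error bars SE) of the 8 genes (x axis) for Pdx1-creLate against control, and for day 18.5, mid-pregnancy and 10 days post partum against non-pregnant islets. The first bar is the tallest for every gene, from 3.0 to 4.8, and the pregnancy bars of Cftr are near 0.

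The steps between neighbouring days were tested with limma over all genes, two-sided, with Benjamini-Hochberg adjustment. They share arrays with the comparison that chose the members. From day 3.5 to day 6.5 0 of 8 members passed (all genes 1.25%), 1 had an unadjusted p under 0.05, and differences ran from -0.28 (Cftr) to 0.20 (Car5b). In the same step 11 of 13 acinar markers rose (median 3.35). Their mean was 5.55, 8.46 and 7.62 on the day 3.5 arrays and 9.86 to 10.05 on day 6.5. With the acinar mean as a covariate 0 members passed, and its part was not tested further.

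From day 6.5 to day 9.5, 5 of 8 members rose, against 10.5% of all genes that rose and 17.4% that changed. In the same step 9 of 13 acinar markers fell and 1 rose (median -1.92), and 3 of 9 stellate markers fell (median -0.25). With the acinar mean as a covariate 5 members passed. Sftpd was at 6.6, 6.7, 6.7 and 7.0 on day 9.5, against 5.5, 6.0, 5.7 and 5.8 on day 6.5. The days did not overlap, and the rise was 1.00 ± 0.11 (log2, SE, adjusted p = 3.31e-07). Car5b was at 5.3, 5.5, 5.8 and 5.8 on day 9.5, against 5.0, 4.6, 4.9 and 4.7 on day 6.5. Its days were also apart, with a rise of 0.80 ± 0.13 (adjusted p = 7.95e-05). Fmo1 was at 7.0, 7.1, 7.1 and 7.2 on day 9.5, against 6.5, 6.3, 6.5 and 6.1 on day 6.5, again with no overlap, and rose by 0.75 ± 0.10 (adjusted p = 8.94e-06).

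Fbxw24 was at 4.2, 4.2, 4.6 and 4.7 on day 9.5, against 3.6, 3.8, 3.8 and 3.7 on day 6.5, and rose by 0.70 ± 0.18 (adjusted p = 0.00861) without overlap. Rerg was at 6.0, 5.7, 6.3 and 5.9 on day 9.5, against 5.4, 5.7, 5.5 and 5.4 on day 6.5. Its arrays met at 5.7, and the rise was 0.48 ± 0.13 (adjusted p = 0.0138). Without day 9.5 replicate 3 the call of Rerg was lost (0.37, adjusted p = 0.0791), and with the SD of each array's values as a covariate 3 of 8 members passed, with Fbxw24 at 0.62 and Rerg at 0.26. Adgrg6 (0.32, adjusted p = 0.124) did not pass, but did when arrays were centred on their medians (0.40, adjusted p = 0.0452) and with only the groups compared in the model (0.32, adjusted p = 0.0331). Fbxw15 (0.18, adjusted p = 0.302) and Cftr (0.10, adjusted p = 0.56) did not pass.

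From day 9.5 to day 12.5 Sftpd alone of the 8 rose, with 7.0, 7.4, 7.5 and 7.3 on day 12.5, against 6.6, 6.7, 6.7 and 7.0 on day 9.5. These arrays met at 7.0. The rise was 0.55 ± 0.11 (adjusted p = 0.0121, all genes 1.72% higher), and without day 9.5 replicate 3 the call was lost (0.53, adjusted p = 0.0507). From day 12.5 to day 15.5 limma called 0 of 8 members and 0% of all genes, with 1 member under an unadjusted p of 0.05. That was Fbxw24, at 5.3, 4.9, 5.0 and 4.9 on day 15.5, against 4.5, 4.9, 4.4 and 4.4 on day 12.5, a difference of 0.48 (adjusted p = 0.336).

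From day 15.5 to day 18.5, 5 of 8 members rose (all genes 6.08% higher and 10.3% changed). In the same step 4 of 10 endothelial markers rose (median 0.25), whose part in the result was not tested. Fbxw24 was at 6.2, 6.0, 6.2 and 6.1 on day 18.5, against 5.3, 4.9, 5.0 and 4.9 on day 15.5. The days were well apart, with a rise of 1.10 ± 0.18 (adjusted p = 0.00519). Adgrg6 was at 6.6, 6.9, 6.5 and 7.2 on day 18.5, against 5.6, 5.9, 5.6 and 6.1 on day 15.5, again with no overlap. It rose by 1.00 ± 0.15 (adjusted p = 0.00279).

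Rerg was at 6.9, 6.2, 6.6 and 6.6 on day 18.5, against 5.9, 5.7, 5.9 and 6.3 on day 15.5, with 1 array of each day crossing, and rose by 0.62 ± 0.13 (adjusted p = 0.0135). Car5b was at 5.9, 6.1, 6.0 and 6.6 on day 18.5, against 5.5, 5.6, 5.4 and 5.8 on day 15.5, a rise of 0.57 ± 0.13 (adjusted p = 0.0151). Fbxw15 was at 4.0, 4.2, 4.2 and 3.9 on day 18.5, against 3.7, 3.5, 3.5 and 3.5 on day 15.5, a rise of 0.52 ± 0.12 (adjusted p = 0.0151). Neither Car5b nor Fbxw15 overlapped between the days. Fmo1 (0.18, adjusted p = 0.22), Sftpd (0.20, adjusted p = 0.202) and Cftr (-0.10, adjusted p = 0.533) did not pass.

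Day 15.5 replicate 2 had the narrowest spread of values of all arrays (SD 1.982, where the arrays reached 2.106). Without it 2 of 8 members passed the last step, Fbxw24 and Adgrg6, and all genes called fell to 68, against 2053 with it. Without it Fbxw15 (0.51, adjusted p = 0.0579), Rerg (0.54, adjusted p = 0.0608) and Car5b (0.58, adjusted p = 0.054) kept their size and lost the call, and Car5b also lost it without day 18.5 replicate 4 (0.42, adjusted p = 0.0704). With the array SD as a covariate 0 of 8 members and 0 genes were called in this step. Fbxw24 (1.01), Adgrg6 (1.04) and Fbxw15 (0.61) stayed about as large in that fit, while Rerg was at 0.38 and Car5b at 0.41. The array SD was 2.053 to 2.101 at day 18.5 and 1.982 to 2.054 at day 15.5, and its part in the result was not tested beyond this fit.

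Over the 6 pregnancy days together, limma's F-test called 7 of 8 members (all genes 38.6%). Between their lowest and highest day Fbxw24 spanned 2.40 (adjusted p = 1.23e-10), Sftpd 1.98 (2.55e-15), Car5b 1.55 (1.83e-09), Fmo1 1.29 (4.43e-11), Adgrg6 1.23 (2.52e-06), Rerg 1.08 (8.67e-06) and Fbxw15 0.71 (0.000922). Cftr spanned 0.28 (adjusted p = 0.313). It read 3.6 to 4.2 on all 31 C57bl6/J arrays, and a change below what an array resolves at such a low signal would not be seen. The same F-test called 12 of 13 acinar markers. Their part in the result was not tested beyond a fit with their mean as a covariate.

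**Figure D5:**
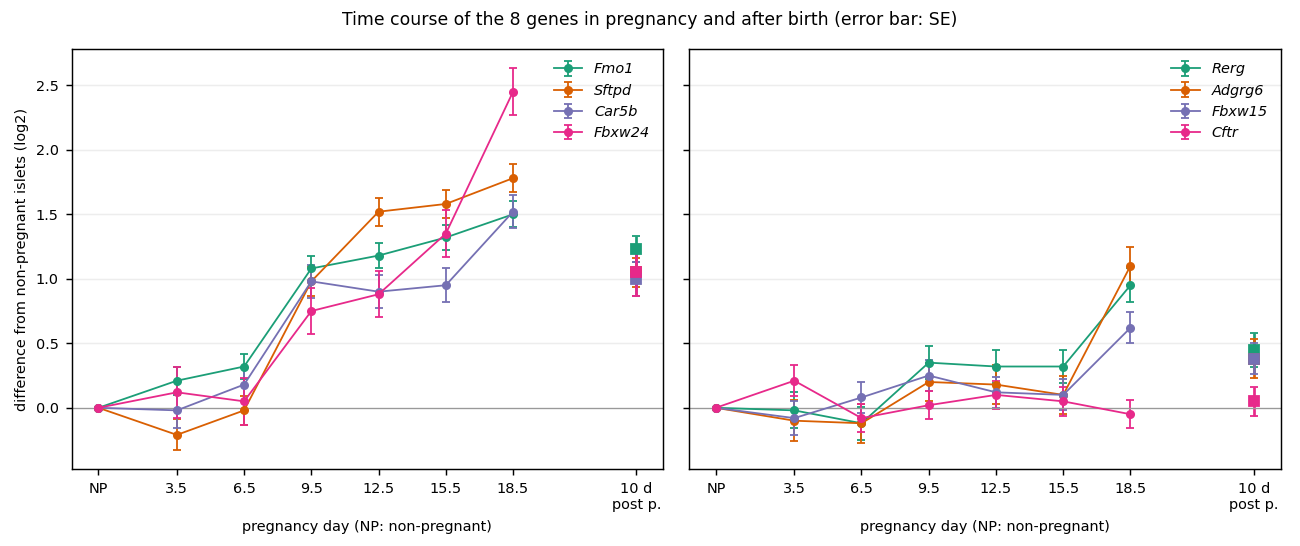
Difference from non-pregnant islets (log2, y axis, error bars SE) of the 8 genes on each pregnancy day (x axis, circles joined by lines) and at 10 days post partum (squares). Fmo1, Sftpd, Car5b and Fbxw24 step up at day 9.5, and Fbxw24 and Car5b again at day 18.5 (left). Rerg steps up at both days, Adgrg6 and Fbxw15 step up at day 18.5, and Cftr stays near 0 (right).

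At 10 days post partum 6 of 8 members were lower than on day 18.5 (all genes 18.4% lower and 30.2% changed). In the same comparison 10 of 10 endothelial markers (median -0.39) and 5 of 9 stellate markers (median -0.42) fell, and their part in the result was not tested. Fbxw24 was at 4.9, 5.5, 4.3 and 4.2 at 10 days post partum, against 6.2, 6.0, 6.2 and 6.1 on day 18.5. The post partum arrays were spread and all lower, and the fall was -1.40 ± 0.18 (adjusted p = 2.41e-05). Sftpd differed by -0.72 ± 0.11 (adjusted p = 0.000138), Adgrg6 by -0.72 ± 0.15 (adjusted p = 0.00129), Car5b by -0.52 ± 0.13 (adjusted p = 0.00457) and Rerg by -0.50 ± 0.13 (adjusted p = 0.00751).

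Fmo1 differed by -0.28 ± 0.10 (adjusted p = 0.0409), a call that was lost without day 18.5 replicate 1 (-0.28, adjusted p = 0.0657) or 4 (-0.18, 0.194), or without post partum replicate 1 (-0.29, 0.0557), 3 (-0.22, 0.102) or 4 (-0.22, 0.138). It was also lost with quantile normalization (-0.18, 0.242), array weights (-0.22, 0.0725) and every probe set on its own (-0.28, 0.0581). The same held with all 39 arrays in 1 model (-0.28, 0.217) and with only the groups compared (-0.28, 0.0834). Fbxw15 (-0.25, adjusted p = 0.0984) did not pass, but did without post partum replicate 2 (-0.38). It also passed with quantile normalization (-0.35, adjusted p = 0.0414) and with arrays centred on their medians (-0.38, adjusted p = 0.00773). Cftr differed by 0.10 (adjusted p = 0.499). With the array SD as a covariate 1 of the 8 members passed this comparison, which was Fbxw24 (-1.28). Adgrg6 (-0.77) and Sftpd (-0.64) stayed about as large in that fit, while Car5b was at -0.30, Rerg at -0.16 and Fmo1 at -0.12.

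Set against non-pregnant islets, 6 of 8 members were higher at 10 days post partum (all genes 4.46% higher and 12.2% changed). These arrays of non-pregnant mice are those used in choosing the members. In this comparison 4 of 10 endothelial markers (median -0.28) and 4 of 9 stellate markers (median -0.30) fell, and their part was not tested. Fmo1 was at 7.3, 7.5, 7.1 and 7.1 at 10 days post partum, against 6.0, 6.1, 6.0 and 6.0 in non-pregnant islets. The groups were far apart, by 1.23 ± 0.10 (adjusted p = 4.97e-10). Sftpd was at 7.1, 6.8, 6.7 and 6.7 at 10 days post partum, against 5.9, 5.6, 5.8 and 5.8 in non-pregnant islets, higher by 1.05 ± 0.11 (adjusted p = 6.91e-08).

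Fbxw24 was higher by 1.05 ± 0.18 (adjusted p = 0.000186) and Car5b by 1.00 ± 0.13 (adjusted p = 2.56e-06) at 10 days post partum than in non-pregnant islets. Rerg was higher by 0.45 ± 0.13 (adjusted p = 0.0238), a call lost without post partum replicate 1 (0.41, 0.0705) or 4 (0.44, 0.0565) or non-pregnant replicate 1 (0.41, 0.0774) or 4 (0.34, 0.0857). It was also lost with arrays centred on their medians (0.42, 0.0521). Fbxw15 was higher by 0.38 ± 0.12 (adjusted p = 0.0321), lost without post partum replicate 2 (0.25, 0.174) or non-pregnant replicate 1 (0.36, 0.0803), 2 (0.39, 0.0557) or 3 (0.36, 0.0787). Its call was also lost with quantile normalization (0.33, 0.0552), every probe set on its own (0.38, 0.0549) and the array SD covariate (0.35, 0.0508). The same held with all 39 arrays in 1 model (0.38, 0.0805) and with only the groups compared (0.38, 0.0621). Adgrg6 differed by 0.38 ± 0.15 (adjusted p = 0.0944) and passed without post partum replicate 1 (0.53, adjusted p = 0.017). Cftr differed by 0.05 (adjusted p = 0.813).

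Relatives of the 8 genes were 100 measured genes of their 7 families, listed for this purpose. Between Pdx1-creLate and control islets 9 rose and 7 fell (all genes 2.86% higher and 3.72% lower, 6.59% changed), and in mid-pregnancy 6 rose and 5 fell against non-pregnant islets (all genes 6.72% higher and 2.52% lower, 9.24% changed). Both comparisons were tested with limma. Of the 16 other Fbxw genes 0 passed in the transgenic comparison, as did 0 higher and 2 lower in mid-pregnancy, Fbxw4 (-0.28) and Btrc (-0.22).

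Of 4 other flavin monooxygenases, both genes next to Fmo1 rose in both comparisons. Fmo2, 7.7 kb away, was higher by 1.02 (adjusted p = 3.81e-05) in Pdx1-creLate islets than in controls and by 0.90 (4.84e-09) in mid-pregnancy than in non-pregnant islets. Fmo4, 13.5 kb away, was higher by 1.12 (adjusted p = 0.00292) and by 1.27 (4.1e-12). Fmo1 itself differed by 4.10 and 1.19 in the same comparisons.

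Of 15 carbonic anhydrase genes other than Car5b, Car8, a carbonic anhydrase-related protein without enzyme activity, rose by 2.55 (adjusted p = 1.93e-09) in Pdx1-creLate islets and by 1.62 (1.98e-15) in mid-pregnancy. Car13 rose by 0.78 (adjusted p = 0.00571) and Car10 fell by 1.20 (4.88e-07) in Pdx1-creLate islets, and Car15 rose by 1.19 (6.51e-08) in mid-pregnancy. Among 26 other adhesion receptors Adgrf1 (1.73, adjusted p = 1.32e-06) and Adgrd1 (1.38, adjusted p = 6.87e-05) were among 3 that rose in Pdx1-creLate islets, and Adgrb3 (-0.82) and Adgrl3 (-0.57) among 3 that fell. In mid-pregnancy 0 of the 26 rose and Adgrf5 fell by 0.31.

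Of 18 genes of the ABCC and anion transport group to which Cftr belongs, Abcc1, an efflux pump of conjugates, rose by 0.47 (adjusted p = 0.0103) in Pdx1-creLate islets, and Slc26a3, a chloride and bicarbonate exchanger, by 0.88 (2.33e-05) in mid-pregnancy. In mid-pregnancy Abcc1 also rose, by 0.20 (adjusted p = 0.0119), and Abcc5 fell by 0.19 (adjusted p = 0.0284). Of 13 other Ras-like genes Rasl11b rose by 0.65 (adjusted p = 0.0498), and Rasd1 (-1.43) and Rasd2 (-0.55) fell in Pdx1-creLate islets. Rasd1 also fell in mid-pregnancy, by 0.47 (adjusted p = 0.0248). Of 8 collectin and surfactant genes 0 rose and Colec12 fell by 0.33 (adjusted p = 0.0346).

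The 10 group means of each member, set against the mean of the other 7 members, gave Pearson correlations of 0.891 (Cftr) to 0.987 (Rerg), in which the Pdx1-creLate group is 1 high point. Over the 8 C57bl6/J groups alone the correlation was 0.85 to 0.979 for 7 members and -0.252 for Cftr. Outside the 8, the genes whose 10 group means were closest to the mean of the members among 631 genes ranked were Itga4, an integrin subunit (r = 0.9894), Srbd1 (0.9892), Rasgrp1, a Ras exchange factor (0.9844), Plppr5 (0.9821) and B3galt1, a galactosyltransferase (0.9814). Their differences between Pdx1-creLate and control islets were 1.80, 2.48, 2.48, 2.42 and 2.95, and on day 18.5 against non-pregnant islets 0.52, 1.10, 0.78, 0.72 and 1.30.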

How the data were processed

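Total RNA of islets was labelled with biotin and hybridized to Affymetrix Mouse Gene 1.0 ST arrays. The deposited values are log2 signals that the authors made with RMA in Affymetrix Expression Console, per the submitters' processing notes. Its version and the set of arrays that RMA ran over are not given in the sources used here. RMA quantile-normalizes, so a shift of all genes together cannot be seen. Values have 1 decimal. The number of arrays limits the precision, and p-values cover the spread between the biological replicates.

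Of 35556 probe sets 21789 had 1 gene symbol, 1621 several and 12146 none, and the probe set with the highest mean per symbol gave 19938 genes. Positions and 250-base upstream windows are RefSeq's, GRCm38.p6. limma 3.58.1 under R 4.3.3 fitted the group means (lmFit, then eBayes), with two-sided p-values adjusted by Benjamini-Hochberg over all 19938 genes and a threshold of 0.05. The 8 Pdx1-creLate and control arrays were 1 model and the 31 C57bl6/J arrays another. Windows were aligned with Biopython 1.88. Steps were tested on simulated data.

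The members, gene lists and tests were chosen with earlier results of these data known. Genes named besides the members were up to 4 called relatives per family and comparison, by size, the 5 genes with the closest group means, and checks of tissue, sex and lactogen response. Neighbouring genes were added after their values were seen. Alternatives changed the normalization, filter, variance model, probe set rule, arrays fitted and covariates, and left out each array. Replicate numbers did not pair the arrays: deviations of same-numbered arrays correlated at -0.017 to 0.158 between Pdx1-creLate and controls (1 of 4 over 0.1) and at -0.336 to 0.306 within C57bl6/J (21 of 105 over 0.1).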

Additional observations from a re-analysis of the deposited data

Results flagged for a closer look

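Of 72 sets of 4 arrays checked for a single distant array (8 genes in 9 groups), 10 held one. The rule's rate of about 1 in 20 by chance is for unrounded values. These values are rounded to 0.1 and often tie, so the count cannot be set against that rate. Control replicate 4 was distant for Fbxw24, at 4.8 where the other controls lay between 3.6 and 3.8. Post partum replicate 2 was distant for Fbxw15, at 4.2 where the others were at 3.7, and for Car5b, at 5.7 where the others were at 5.6.

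The other distant arrays were 0.1 to 0.3 from their group, which is 1 to 3 rounding steps of 0.1. They were Pdx1-creLate replicate 2 for Fbxw24 (8.7), non-pregnant replicate 2 for Fmo1 (6.1), day 6.5 replicate 1 for Cftr (3.6) and day 12.5 replicate 2 for Rerg (6.1). On day 15.5 they were replicate 1 for Fbxw15 (3.7), replicate 2 for Sftpd (7.2) and replicate 2 for Cftr (4.1).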

How the results depend on the processing

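Over 280 alternatives for counts and medians, 268 stayed within 1.5 times the reported count or the replicate spread, 12 moved and none reversed. With the replicate number as a block, 5 members passed the step to day 9.5, 1 the step to day 12.5, 5 the step to day 18.5, 6 each of the post partum comparisons and 7 the test among days, the median transgene difference was 3.55 and 14 relatives were called in place of 16. With the array SD as a covariate 3 members passed to day 9.5 (5 reported), 0 to day 18.5 (5 reported), 1 between 10 days post partum and day 18.5 (6 reported), and 10 relatives passed in the transgenic comparison. With only the groups compared in the model 0 passed to day 12.5 (1 reported). Leaving out the dimmest 25% of genes drops Fbxw24, Fbxw15 and Cftr, which left 3 members called to day 18.5 and a mid-pregnancy median of 0.94 (0.64 reported). Relatives called were 10 with every probe set on its own and 4 with the duct covariate, which moved the median transgene difference to 4.14. The causes were not tested, apart from the members dropped by the filter. Leaving out 1 array gave 4 to 5 members called to day 9.5, 0 to 1 to day 12.5, 2 to 5 to day 18.5 and 5 to 7 between 10 days post partum and day 18.5. Across these the median was 3.42 to 3.66 for the transgene and 0.55 to 0.73 for mid-pregnancy. Of 1818 alternatives for single genes 1763 kept their call, 43 lost it, 6 gained one, 6 moved in size and none reversed. Low signals of Fbxw15 and Cftr limit what can be seen of them.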

Other observations

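The measured genes next to each member on the chromosome, looked up after values were seen, were 14 genes that are no members, with differences of -0.28 to 1.30 between Pdx1-creLate and control islets. Of these 14, limma called 4, against 6.59% of all genes in this comparison. They were Fmo2 and Fmo4, Cttnbp2 (a cortactin-binding protein), 43.7 kb from Cftr and higher by 1.30 ± 0.11 (log2, SE, adjusted p = 3.29e-06), and Vta1 (a regulator of endosomal sorting), 109.0 kb from Adgrg6 and higher by 0.50 ± 0.08 (adjusted p = 0.00158). Asz1, on the other side of Cftr at 61.6 kb, differed by -0.10 (adjusted p = 0.763). Hivep2, on the other side of Adgrg6, differed by 0.28 (adjusted p = 0.451), and the genes beside Rerg, Sftpd and Car5b did not pass.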
